A study of Homo sapiens with 6 samples.

Results

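The genes described are 9 members of the JAK and STAT families, chosen by their symbols alone: the kinases JAK1, JAK2 and JAK3 and the transcription factors STAT2, STAT3, STAT4, STAT5A, STAT5B and STAT6. They are 9 of 17918 genes measured by RNA sequencing in the human cell line KMS11, which comes from multiple myeloma, a plasma cell cancer. The knockdown group is 3 libraries of cells with an shRNA, a hairpin that lowers a transcript, directed at CRIP1, the gene of a small LIM domain protein. In the other 3 libraries the cells carried a scrambled hairpin (scramble), and their genotype is labelled WT. Both groups received no other treatment and were grown in the same medium with 10% serum, and each group is this 1 cell line with 1 hairpin label. Nothing in the labels says that each library had a culture of its own, and a p-value here rests on the spread between libraries, which may be technical.

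Janus kinases (JAKs) sit on the inner tails of cytokine receptors. When a cytokine binds, the JAKs add phosphate to the receptor and to STAT proteins, which pair up, enter the nucleus and bind DNA near their target genes. Different receptors use different members: the interleukin-6 family acts mainly through JAK1 and STAT3, the type I interferons through STAT2, interleukin-4 through STAT6, interleukin-12 through STAT4, and erythropoietin through JAK2 and the STAT5 pair. In plasma cells and myeloma, interleukin-6 is known as a survival and growth signal. RNA levels say nothing of the phosphorylation on which these proteins depend.

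STAT5A had almost no transcripts in scramble, and in the knockdown it was a clearly expressed gene. JAK1 and STAT3 fell, STAT2, STAT5B and STAT6 rose by at most 1.41-fold in the fit of counts, STAT4 rose from a very low level, and JAK2 and JAK3 did not pass the test. In total 5 of the 9 members rose and 2 fell at an adjusted p below 0.05 (edgeR's quasi-likelihood test, Benjamini-Hochberg over 12612 genes). Of all genes tested, 39.4% were called higher, 38.1% lower and 77.6% in either direction, so having 7 of 9 members called is close to the background and is no result about these families. On log2(TPM + 1) 7 members rose and 2 fell, and over all genes the split was 5531 higher and 3482 lower in place of 4974 and 4809. TPM is an abundance per gene length in which every library has an equal total. The median log2 change of all genes was 0.01 in the fit of counts and 0.12 on log2(TPM + 1), where test and filter differed too, and 0.05 and 0.06 with no filter on low values in either. The median change of the 9 members was 0.15, and their median change regardless of sign was 0.47 against 0.41 for all genes. Of the members, 1 changed 2-fold or more, as did 18.1% of all genes tested. By TPM, all 9 members had groups that did not overlap, 7 with the knockdown above, against 78.5% of genes tested in either direction, 48.2% with the knockdown above and 30.3% with it below.

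The hairpin target and other markers give the setting. CRIP1 was at 2791 to 3327 TPM in scramble and 127 to 134 TPM in the knockdown (log2 fold change -4.71, SE 0.06, edgeR adjusted p = 6.15e-22). Library totals were 16971454 to 18005318 estimated counts, and log2 CPM (counts scaled to library size) correlated at 0.995 to 0.996 within groups and 0.921 to 0.923 between them (Pearson's r across genes). All 9 plasma cell markers checked had counts in both groups, and of 8 tested 3 rose and 5 fell. Their summed level was 8371 to 8811 TPM in scramble and 3792 to 4048 TPM in the knockdown. Nearly all of the net difference was in JCHAIN (6443 to 1789 TPM on average). On the log2 scale JCHAIN (-1.99), MZB1 (-1.21), PRDM1 (-0.95), XBP1 (-0.60) and SDC1 (-0.59) fell. IRF4 (0.39), TNFRSF17 (0.30) and CD38 (0.51) rose. Erythroid markers went from 0.15 to 0.23 TPM in sum to 689 to 693 TPM. In scramble 9 of those 10 markers were at 0 counts, with GATA1 and the globins among them. The globin HBB stayed near 0, with 1 count over the 3 knockdown libraries, and was not tested. Epithelial markers went from 10.3 to 13.3 TPM up to 84.0 to 90.1 TPM, and myeloid markers from 0.48 to 0.71 TPM up to 6.60 to 7.32 TPM. Nearly all of the myeloid difference was in LYZ (0.45 to 4.57 TPM on average) and CD33 (0.08 to 2.13 TPM). CD14 had 2 counts against 5, MPO 2 against 2 and CSF1R 3 against 1. T and NK cell markers, of which none passed the filter on low counts, summed to 0.43 to 0.57 TPM and then 1.31 to 1.99 TPM. Of these 6, CD3D alone had more counts in the knockdown (0 against 19), CD3E had 7 against 5, CD2 5 against 3, CD3G 1 against 0 and GNLY 2 against 0, and NKG7 was at 0 throughout. Mature B cell markers went in sum from 6.16 to 7.67 TPM to 19.9 to 21.4 TPM, of which CR2 was 6.41 and 20.5 TPM on average. Of 4 fibroblast and endothelial markers tested 1 rose, COL1A2 from 0 to 660 counts, and 3 fell, among them PDGFRB from 6.18 to 1.07 TPM and COL1A1 from 1.12 to 0.05 TPM. The part of these other programmes in the changes below was not tested. In bulk RNA, fewer cells with a transcript and less of it per cell cannot be told apart.

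STAT5A, with STAT5B the relay for erythropoietin, prolactin and interleukin-2, separated the groups most. It had 2.07, 0 and 0 estimated counts in scramble replicates 1 to 3 and 585.19, 603.4 and 565.11 in knockdown replicates 1 to 3. As TPM these were 0.06, 0 and 0 against 16.88, 16.98 and 16.65. The knockdown libraries lay within 0.33 TPM of each other, and 2 of the 3 scramble libraries held no count. The ratio of summed counts, 2 against 1754 and scaled to library totals, was 850 with an exact 95% binomial interval of 235 to 7026, which covers counting error only. The fitted log2 fold change was 9.40 (SE 0.22, edgeR adjusted p = 2.60e-18). It depends on how near-zero counts are treated and ran from 3.37 on log2(FPKM + 1) to 12.14 without scramble replicate 1, the library that held the 2 counts. STAT5A passed the filter on low counts through the knockdown group alone, so it had to differ. It was 1 of 20 genes in the table with at most 3 summed counts in scramble and at least 500 in the knockdown.

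STAT5B, the closely related partner gene, rose modestly. It was at 21.84, 21.59 and 22.08 TPM in scramble and 28.97, 28.81 and 29 TPM in the knockdown, so the groups stood apart with little spread in either. The log2 fold change was 0.27 (SE 0.04, edgeR adjusted p = 7.89e-06). The pair share sequence: of all 100-base stretches in the annotated transcripts of STAT5A, 6.14% also occur in those of STAT5B, and no other members share any stretch of that length. Reads from the shared part were divided between the pair by the authors' counting. The single values of both genes were not whole in 4 of 6 libraries, whereas their sums were: 1031, 1040 and 1037 counts in scramble and 1951, 1998 and 1919 in the knockdown. STAT5A made up 29.9% ± 0.389 (SD, n = 3) of that sum in the knockdown. How far the rise of STAT5B rests on the division was not tested, and its size is uncertain for that reason. As summed TPM, which a division between the pair affects less, STAT5A and STAT5B together went from 21.9 ± 0.248 to 45.8 ± 0.103 (SD, n = 3 each).

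The 2 genes lie side by side on chromosome 17 with STAT3, and this cluster held both a rising and a falling member. In GENCODE 29 (GRCh38) STAT5B spans chr17:42199168-42276707 on the minus strand, STAT5A chr17:42287547-42311943 on the plus strand and STAT3 chr17:42313324-42388568 on the minus strand. STAT5A and STAT5B are read away from each other across a gap of 10.8 kb, and the far ends of STAT5A and STAT3 are 1.38 kb apart. The bases before their starts differ, and they are shown because STAT5B had counts in all 6 libraries and STAT5A in only 1 of the scramble libraries. The sequences are the 250 bases before a RefSeq start (GRCh38.p14), 5′ to 3′ on the strand of the gene, with each CG dinucleotide, the site of DNA methylation, in capitals.
STAT5A, first start (chr17:42287189-42287438, plus strand): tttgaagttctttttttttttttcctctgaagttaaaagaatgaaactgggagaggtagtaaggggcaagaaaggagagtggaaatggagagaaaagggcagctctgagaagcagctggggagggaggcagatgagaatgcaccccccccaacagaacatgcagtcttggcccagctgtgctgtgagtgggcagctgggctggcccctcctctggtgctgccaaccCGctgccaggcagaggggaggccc
STAT5B (chr17:42276392-42276641, minus strand): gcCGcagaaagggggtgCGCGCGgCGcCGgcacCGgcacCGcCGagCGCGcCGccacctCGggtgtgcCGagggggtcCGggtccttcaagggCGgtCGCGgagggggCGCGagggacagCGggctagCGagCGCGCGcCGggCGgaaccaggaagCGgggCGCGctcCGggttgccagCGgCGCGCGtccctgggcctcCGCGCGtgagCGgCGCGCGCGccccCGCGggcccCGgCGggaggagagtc
The STAT5A stretch holds 1 CG and the STAT5B stretch 47. The 250 bases before the other listed STAT5A starts, not shown, hold 4 and 29 CG. Over the 300-base windows that also take in 50 bases after the start, the 3 listed starts of STAT5A have 3, 5 and 37 CG, STAT5B has 55, and the median over all promoters is 14. The files do not say which start of STAT5A was in use, and methylation was not measured.

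Motifs were searched on both strands in the 17 listed windows of the 9 members, some of which overlap. The letters TTCNNNGAA, the palindrome that most STAT dimers bind, occurred in none of them, against 7.66% of the 35116 promoters in the table. The same palindrome with 1 base more between TTC and GAA, known from STAT6, occurred in 1, the first window of STAT5A, where ttcctctgaa begins 229 bases before the start. It occurred in 6.44% of all promoters. The letters AGATAA, which GATA factors bind, occurred in 1 member window, that of STAT6, and in 10.3% of all. The matches lie in different windows, and a match is only a run of letters.

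Around STAT5A the changes were not uniform. Within 150 kb of the ends of STAT5A, 7 other annotated genes were in the table, and 4 were called higher and 3 lower, against 39.4% and 38.1% of all genes. CAVIN1, a coat protein of caveolae just beyond STAT3, had 0 counts in every scramble library and 274, 274 and 269 in the knockdown. With the scramble group set to a floor of 3 counts in all, that is at least 264-fold higher. Like STAT5A, CAVIN1 passed the filter on low counts through the knockdown group alone, so it had to differ. STAT3 between them fell, as described next. On the other side GHDC rose from 28.82 to 31.25 TPM up to 49.05 to 56.22 TPM (log2 fold change 0.68), and RAB5C, a GTPase of early endosomes, was called lower by 0.10 on the log2 scale (169 against 173 TPM, where the order is the opposite), a call kept in 5 of 17 alternatives. These neighbours were chosen by position after STAT5A's value was known.

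**Figure D1:**
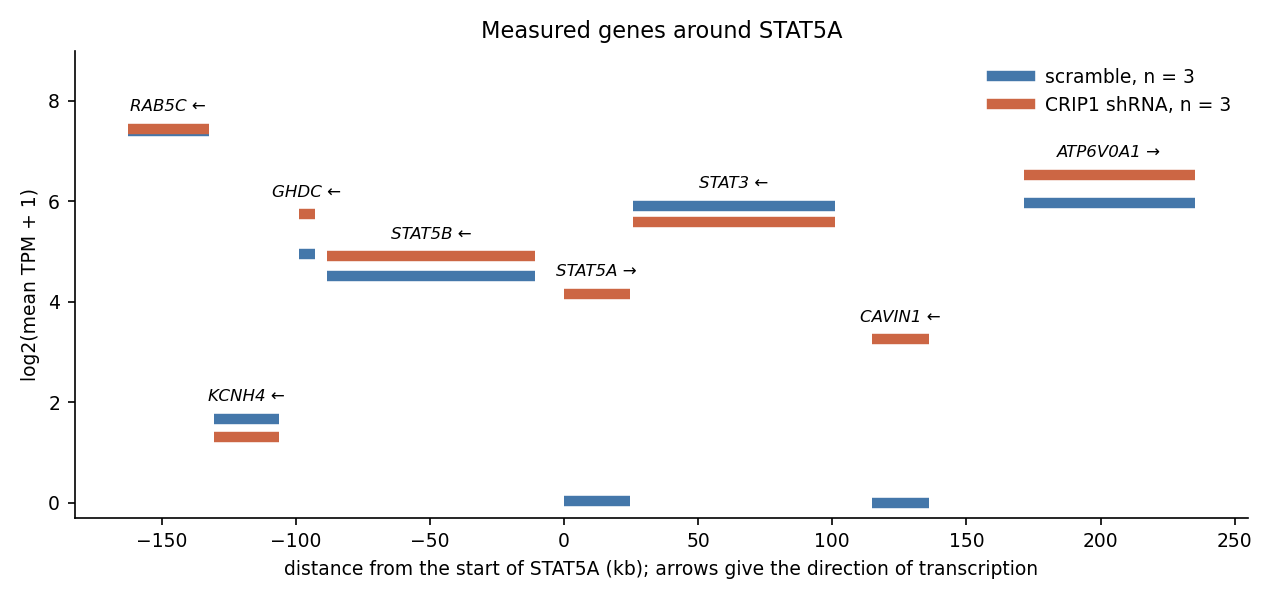
Mean level of each measured gene around STAT5A, as log2(mean TPM + 1) (y axis) against distance from the start of STAT5A in kb (x axis); each bar spans a gene, in blue for scramble and orange for knockdown (n = 3 each). STAT5A and CAVIN1 lie at or near 0 in scramble and rise, and STAT3, between them, is lower in the knockdown.

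STAT3, the main relay of interleukin-6 and interleukin-10, fell. It was at 59.80, 58.24 and 59.60 TPM in scramble and 47.11, 46.83 and 47.94 TPM in the knockdown. The lowest scramble value lay about 10 TPM above the highest knockdown value. The log2 fold change was -0.47 (SE 0.04, edgeR adjusted p = 3.38e-10), or -0.32 on log2(TPM + 1).

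STAT2, which joins the interferon-activated factor ISGF3 with IRF9, rose. Its levels were 79.23, 76.08 and 79.30 TPM in scramble and 125.56, 117.06 and 120.60 TPM in the knockdown. All 3 knockdown libraries were above 117 TPM and no scramble library reached 80. The log2 fold change was 0.50 (SE 0.04, edgeR adjusted p = 1.13e-10). Against STAT3 the TPM ratio of STAT2 went from 1.32 ± 0.0127 to 2.56 ± 0.0913 (SD, n = 3 each).

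STAT6, the relay of interleukin-4 and interleukin-13, had the highest TPM of the 9 members in scramble and rose little. It was at 105.85, 96.42 and 96.94 TPM in scramble and 123.96, 117.16 and 121.90 TPM in the knockdown. Scramble replicate 1 stood above the other 2 but below every knockdown library. The log2 fold change was 0.15 (SE 0.04, edgeR adjusted p = 0.00232), and it was 0.28 on log2(TPM + 1).

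STAT4, the relay of interleukin-12 in T and NK cells, was close to the detection limit in both groups. It had 33, 27 and 24 counts in scramble and 45, 45 and 40 in the knockdown, which is 1.59, 1.17 and 1.07 TPM against 1.96, 2.15 and 2.02 TPM. The groups did not overlap, but the scramble libraries varied by 21.6% of their mean. The log2 fold change was 0.49 (SE 0.20, edgeR adjusted p = 0.0273). DESeq2 did not call it (adjusted p = 0.166), and it was lost without knockdown replicate 1 (0.0687) or 2 (0.0624), or scramble replicate 2 (0.0770) or 3 (0.113). With the GC trend removed the adjusted p was 0.0667. The T and NK cell markers given above were all below the filter on low counts, and the part of such cells in the STAT4 values was not tested.

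JAK1, the kinase shared by interleukin-6, interferon and interleukin-10 receptors, was the member that fell most. Its levels were 88.04, 89.68 and 85.95 TPM in scramble and 63.19, 65.88 and 64.79 TPM in the knockdown. No knockdown library reached 66 TPM. The log2 fold change was -0.58 (SE 0.04, edgeR adjusted p = 8.60e-12), a level 26.5% lower by TPM.

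JAK2, the kinase of the erythropoietin and growth hormone receptors, was far less abundant. It was at 3.77, 4.11 and 3.82 TPM in scramble and 4.74, 4.43 and 4.77 TPM in the knockdown. The TPM values did not overlap, yet the log2 fold change of 0.12 (SE 0.08) had an edgeR adjusted p of 0.150. On log2(TPM + 1) the value was 0.20 and limma's adjusted p was 0.0230, and with the GC trend removed it was 0.01 (edgeR adjusted p = 0.951).

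JAK3, which pairs with the common gamma chain IL2RG of lymphoid cytokine receptors, had no stable direction. It was at 23.77, 24.24 and 24.52 TPM in scramble and 28.08, 26.41 and 25.06 TPM in the knockdown, so every knockdown library was above every scramble library on that scale. In the fit of counts the log2 fold change was -0.004 (SE 0.05, edgeR adjusted p = 0.942). On log2(TPM + 1) it was 0.13 (limma adjusted p = 0.0459). Of the JAK sum in TPM, JAK3 made up 20.9% ± 0.521 in scramble and 27.7% ± 1.42 in the knockdown (SD, n = 3 each), while JAK1 went from 75.8% ± 0.513 to 67.5% ± 1.44.

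**Figure D2:**
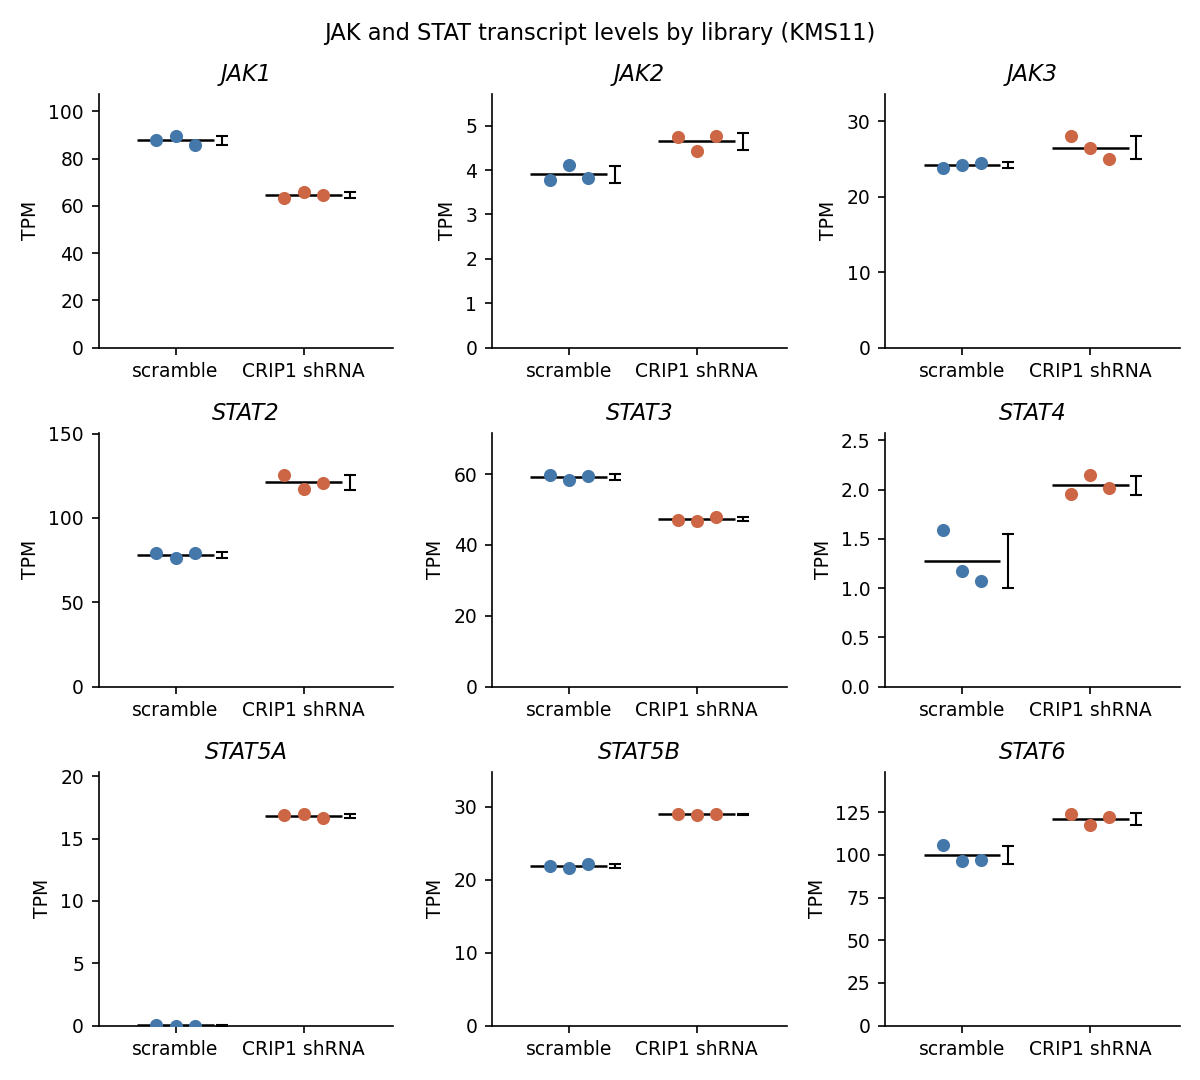
Level of each member in TPM (y axis, from 0) in the 3 scramble libraries (blue) and the 3 knockdown libraries (orange); each point is a library, the line is the mean and the bar beside it the SD. In all 9 panels the groups do not overlap, with JAK1 and STAT3 lower in the knockdown and the other 7 higher on this scale.

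**Figure D3:**
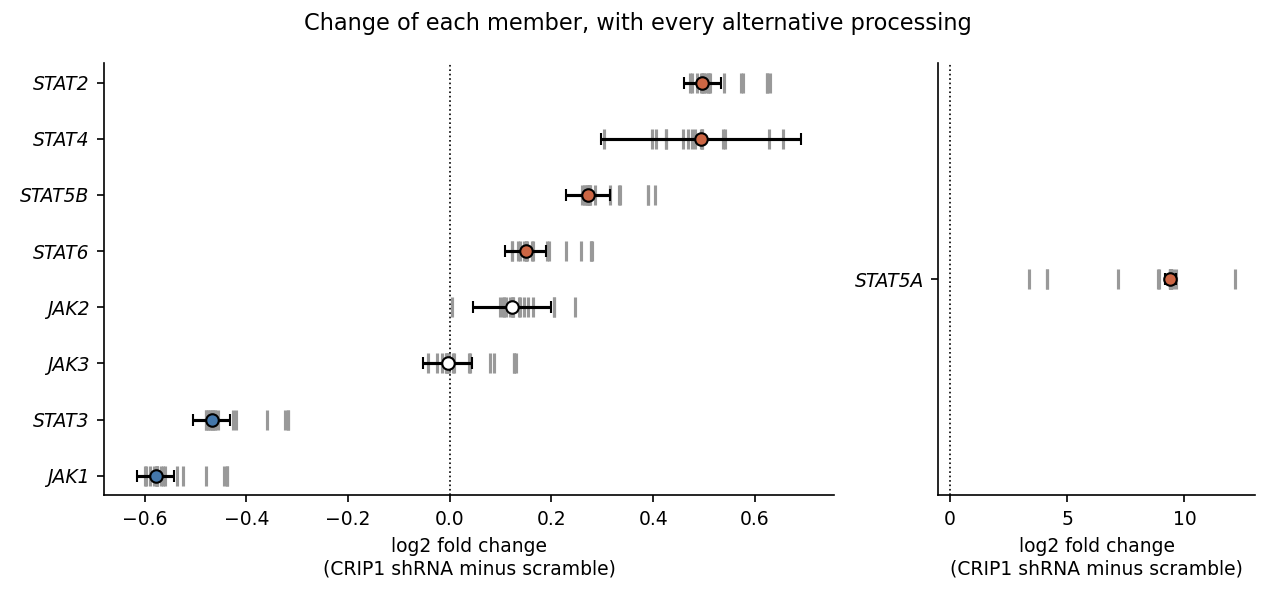
Log2 fold change of each member, knockdown minus scramble (x axis), by edgeR with its SE; orange is called higher, blue called lower and white not called, and grey ticks are the alternatives of processing. JAK1 and STAT3 stay below 0 under each, JAK3 falls on both sides of 0, and STAT5A has a scale of its own.

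The order of levels per length changed between the groups. In scramble it ran from STAT6 (99.7 TPM) through JAK1 (87.9), STAT2 (78.2), STAT3 (59.2), JAK3 (24.2), STAT5B (21.8), JAK2 (3.90) and STAT4 (1.28) to STAT5A (0.02), and no neighbours in this order had overlapping libraries. In the knockdown STAT2 (121.1 TPM) and STAT6 (121.0 TPM) led and overlapped, so their order is not resolved. They were followed by JAK1 (64.6), STAT3 (47.3), STAT5B (28.9), JAK3 (26.5), STAT5A (16.8), JAK2 (4.65) and STAT4 (2.04), without overlap between neighbours. The 6 STAT genes summed to 260.3 ± 7.52 TPM in scramble and 337.2 ± 7.77 TPM in the knockdown, and the 3 JAK genes to 116.0 ± 1.90 and 95.8 ± 1.07 TPM (SD, n = 3 each). STAT3 made up 22.8% ± 0.411 of the STAT sum in scramble and 14.0% ± 0.307 in the knockdown, STAT2 30.1% ± 0.549 and 35.9% ± 0.480, and STAT5A 0.01% ± 0.01 and 5.00% ± 0.144. STAT5B held 8.39% ± 0.221 and 8.58% ± 0.173, a difference within its spread.

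**Figure D4:**
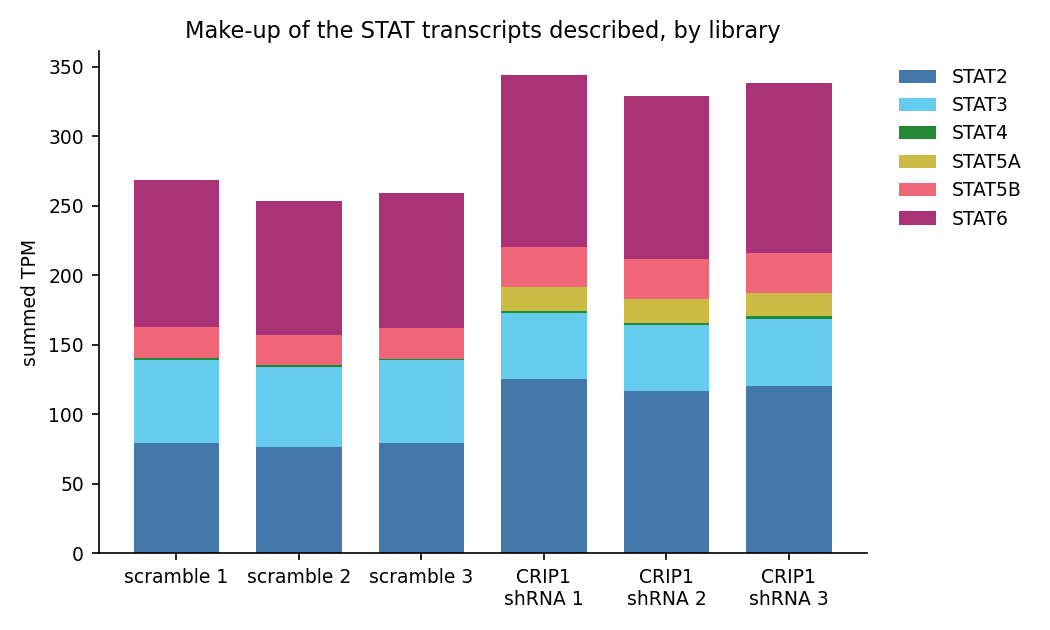
Summed TPM (y axis) of STAT2, STAT3, STAT4, STAT5A, STAT5B and STAT6 in each of the 6 libraries (x axis), stacked by gene. The knockdown bars are taller, the STAT3 band is thinner there, and a STAT5A band is visible in the knockdown bars alone.

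The lengths behind the TPM values were also compared. The effective length that counts and FPKM together imply was 4755 bases for JAK1 in scramble and 4759 bases in the knockdown. For JAK1, JAK2, JAK3, STAT2, STAT3, STAT5B and STAT6 it changed by less than 1%, and for STAT4, on few counts, by -3.21%. Of 7692 genes above 5 FPKM in every library, 6.76% changed by more than 5%. STAT5A had too few scramble reads for this ratio, and its length in the knockdown was 3488 bases.

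Over the 6 libraries, the genes most like STAT5A by Pearson's r of log2(TPM + 1) were RFWD3, BEX2 and LYL1, each with r above 0.99. RFWD3 went from 50.9 to 116 TPM, BEX2 from 21.5 to 231 TPM and LYL1, a transcription factor of blood progenitors, from 0 to 10.3 TPM. For JAK1 they were TUBGCP2 (31.3 to 18.9 TPM), EHMT2 (50.7 to 29.5 TPM) and MIF (1777 to 1166 TPM). The same r was exceeded by 1446 genes for STAT5A and 585 for JAK1. A gene reaches it when it moves in the member's direction by much more than the spread within its 2 groups. These names are therefore a description of 6 libraries in 2 groups and no more.

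The counts of calls in the lists that follow are to be read against all genes, since no list was tested as a set. Of all genes, 39.4% were called higher, 38.1% lower and 77.6% in all. Some list genes passed the filter on low counts through 1 group alone, and the counts and medians include them. IL23R, PTPRC, CCND1, IFITM1, IFITM3, RSAD2, GATA3 and CISH passed through the knockdown, which favoured a rise. The receptors CSF2RB, CRLF2, IL3RA and GHR and the interferon target MX2 passed through scramble, which favoured a fall. Most ligands of the pathway were too low to test. Of 24 ligand genes in the table, 5 passed the filter on low counts, of which 1 rose and 4 fell, with a median log2 fold change of -0.94 against 0.01 for all genes. IL10, an anti-inflammatory cytokine that signals through JAK1 and STAT3, went from 72.50, 89.93 and 84.83 TPM to 1.5, 1.01 and 1.6 TPM (log2 fold change -6.04, SE 0.13). IL23A (-1.57, SE 0.11), IL12A (-0.94, SE 0.16) and OSM (-0.62, SE 0.18), a member of the interleukin-6 family, also fell. The 1 ligand that rose, IL15, named after its value was seen, did so by 0.36 (SE 0.11), a call lost with the GC trend removed (edgeR adjusted p = 0.104) and under DESeq2 (0.0587), and IL6, likewise, had 1 count in scramble and 4 in the knockdown. With the GC trend removed no ligand was called higher, and with no filter on low counts 2 of 20 were, with a median of 0.09.

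Of 29 cytokine receptor genes tested, 7 rose and 16 fell (background 39.4% higher, 38.1% lower), and the median was -0.35, or -0.01 on log2(TPM + 1), where 8 rose and 12 fell of 25. IL2RB, a chain of the interleukin-2 and interleukin-15 receptors that signals through STAT5, fell from 32.4 ± 1.15 to 7.51 ± 0.820 TPM (SD, n = 3 each, log2 fold change -2.24, SE 0.07). The interferon receptor chain IFNAR2 fell from 87.5 ± 1.35 to 51.5 ± 1.34 TPM, and IL10RA from 16.9 ± 0.330 to 9.68 ± 0.374 TPM. IFNGR1, a chain of the interferon-gamma receptor, rose from 24.8 ± 0.555 to 55.3 ± 3.84 TPM. IL23R had 3 counts in scramble and 56 in the knockdown, a ratio of 18.1 with a counting interval of 5.88 to 90.4. EPOR, named after its value was seen as the receptor that uses JAK2 and STAT5, was at 4.61 ± 0.867 and 4.83 ± 0.699 TPM, with overlapping groups (edgeR adjusted p = 0.683), and its fitted change took either sign over the alternatives.

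Among the inhibitors, the SOCS genes, which cytokines induce and which then block JAKs, are best known. Of 20 inhibitors tested 6 rose and 9 fell, a share called near the 77.6% of all genes, with a median of -0.14. SOCS3, the brake on interleukin-6 signalling and itself a STAT3 target, fell from 84.36, 91.83 and 87.99 TPM to 24.76, 27.85 and 26.19 TPM (log2 fold change -1.87, SE 0.05). SOCS1 fell from 24.2 ± 0.964 to 6.60 ± 0.145 TPM. The SOCS genes did not move together. SOCS2 (log2 fold change 0.65) and SOCS7 (0.26) rose, as did the inhibitor CISH (1.57), described below. SOCS5 fell (-0.24), and SOCS4 and SOCS6 were not called. The phosphatase gene PTPN11 fell by 0.45 (SE 0.03) on the log2 scale. The ubiquitin ligase CBLB rose from 1.48 ± 0.346 to 6.57 ± 0.272 TPM, and PTPRC, the leukocyte phosphatase CD45, rose from 12 to 125 counts over 3 libraries.

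Genes known as STAT3 or STAT5 targets went both ways, 9 higher and 8 lower of 19, near the 39.4% and 38.1% of all genes, with a median of -0.07 that was 0.02 on log2(TPM + 1) and 0.04 with the GC trend removed. The list mixes targets of both factors, which in these data moved in opposite directions, and several are targets of other pathways too. Besides SOCS3, the survival kinase PIM2 fell from 1148 ± 29.2 to 610.0 ± 8.70 TPM. Cyclin D2, CCND2, rose from 105 ± 2.17 to 173 ± 8.51 TPM and the growth factor gene VEGFA from 76.3 ± 4.09 to 130 ± 4.21 TPM. CCND1 had 3 counts in scramble and 73 in the knockdown, a ratio of 23.6 with a counting interval of 7.76 to 117. CISH, a feedback inhibitor known as a target of STAT5, rose from 36 to 118 counts over 3 libraries (log2 fold change 1.57, SE 0.25). That is from 0.673 ± 0.142 to 2.17 ± 0.180 TPM. CISH was named through the list of STAT6 targets and not by its rank in this list. The 8 genes that fell also included PIM1 (log2 fold change -0.49), OSM (-0.62), BCL3 (-0.41) and ID1 (-0.39), and BCL2L1 was not called. Among the 9 that rose were also BCL6 (0.77), SOCS2 (0.65), HIF1A (0.62), MCL1 (0.44) and MYC (0.18).

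Of 25 interferon and STAT2 target genes, 14 rose and 9 fell (background 39.4% and 38.1%), with a median of 0.30. IFITM1 and IFITM3, membrane proteins that block virus entry, moved most. IFITM1 went from 0.78, 2.02 and 1.56 TPM to 61.33, 64.80 and 68.20 TPM, and IFITM3 had 3 counts in scramble and 495 in the knockdown, a ratio of 160 with a counting interval of 54.4 to 778. The IFITM genes resemble each other, so the division of reads among them is uncertain. IFIT5 rose from 4.10 ± 0.0755 to 11.2 ± 0.567 TPM, while BST2, the antiviral tetherin, fell from 376 ± 0.747 to 261 ± 9.39 TPM. The list held genes of both directions. The 9 that fell also included ISG15 (log2 fold change -1.06), MX1 (-1.35), OAS1 (-0.96), OASL (-1.28) and IFI6 (-1.10). Among the 14 that rose were also IFIT1 (1.01), IFIT2 (0.55) and IFIT3 (0.47). IRF9, the DNA-binding partner of STAT2, named after its value was seen, rose from 12.2 ± 1.24 to 20.4 ± 1.59 TPM (log2 fold change 0.60, SE 0.10).

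STAT6 targets were few in this line. Of 11 genes 6 were tested, and 3 rose and 2 fell (background 39.4% and 38.1%), with a median of 0.62 over these few genes. The interleukin-4 receptor gene IL4R fell from 21.4 ± 0.917 to 14.4 ± 0.586 TPM, and SOCS1 fell as given above. CISH rose, and GATA3 rose from 15 to 86 counts over 3 libraries. CISH and GATA3 passed the filter on low counts through the knockdown group alone, which favoured a rise. With at least 50 counts required in 3 libraries none of 2 was called higher (median -1.35), and on log2(FPKM + 1) 1 of 3 was (median -0.56). FCER2, the receptor CD23 that interleukin-4 is known to induce in B cells, also named after its values were seen, had 0 counts in every library.

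**Figure D5:**
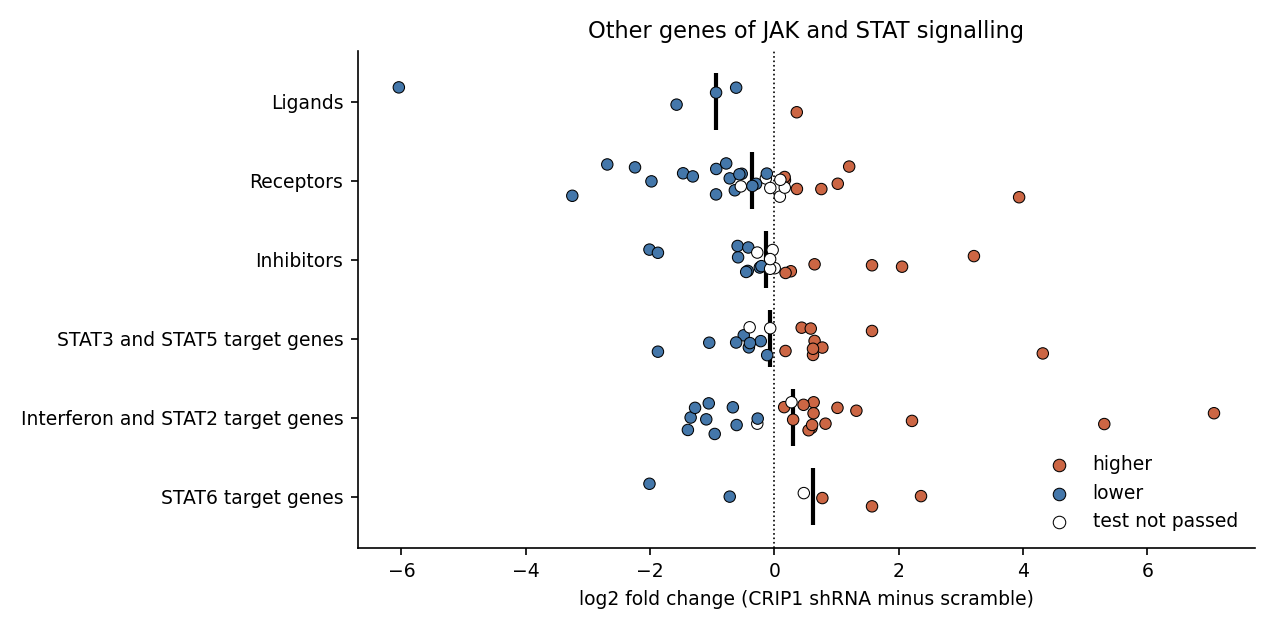
Log2 fold change, knockdown minus scramble (x axis), of each tested gene in 6 lists of pathway genes (y axis); orange is higher, blue lower, white did not pass the test, and the black bar is the median. Each list holds genes on both sides of 0, and the medians run from -0.94 for ligands to 0.62 for STAT6 targets.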

How the data were processed

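RNA of 6 KMS11 libraries was prepared with a SMARTer mRNA kit, per the labels' protocols. The authors' deposited table gives estimated counts, FPKM (fragments scaled to gene length and depth) and TPM per gene and library, per the file headers. Tools and build, per the submitters' processing notes, were RSEM 1.2.8, Bowtie2 2.2.5, HISAT2 2.1.0 and GRCh38.p13. Annotation and strand setting are not given in the sources used here, so overlapping genes cannot be told apart.

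Groups and replicate numbers came from the titles. Estimated counts were rounded and tested with edgeR 4.0.16 (R 4.3.3): filterByExpr at a minimum count of 10, TMM scaling, quasi-likelihood fit on group alone, Benjamini-Hochberg over all genes tested, threshold 0.05. The SE was taken from the F statistic (log2 fold change over its root). An exact two-sided permutation test of 3 against 3 cannot go below p = 0.1. Libraries of 1 group differed by more than sampling noise (mean chi-square per gene 1.62 to 4.15).

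Members and lists were chosen with earlier results of these data known. Named were the 9 members, CRIP1, per list the 4 genes of smallest adjusted p and the largest called fold, and the 3 genes most like each of the 2 members with the largest change. Marker genes, and list genes outside this rule, were named after their values were seen. Alternatives were DESeq2 1.42.0 (size factors, Wald test), upper-quartile scaling, no filter, at least 50 counts in 3 libraries, a replicate block, limma 3.58.1 on log2(FPKM + 1), log2(TPM + 1) and log2(TPM + 0.1), a GC trend removed by a centred loess offset (span 0.5), and each library left out. GENCODE 29 matched 17668 of 17918 genes by NCBI gene ID. RefSeq promoters were found for all 9 members, in 17 windows. Proteins were not analysed here.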

Additional observations from a re-analysis of the deposited data

How the results depend on the processing

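JAK1, STAT2, STAT3, STAT5A, STAT5B and STAT6 kept their direction and call under all 17 alternatives. Of 783 refits of 47 tested genes among those named outside the family, 762 kept direction and call. The others were of IL15, EPOR and RAB5C. For the remaining named genes the refits were not counted. EPOR, not called, turned from -0.07 to 0.0181 on log2(FPKM + 1), 0.0605 on log2(TPM + 1) with and without a filter, 0.0733 on log2(TPM + 0.1) and 0.0088 with the GC trend removed, and ran from -0.201 to 0.0686 with 1 library left out. RAB5C turned from -0.10 to 0.0321 on log2(TPM + 1) with and without a filter, 0.0322 on log2(TPM + 0.1) and 0.0071 with the GC trend removed. Members called higher numbered 4 to 7 and members called lower 2 throughout. JAK2 was called higher by limma on log2(FPKM + 1) (0.15), on log2(TPM + 1) with and without a filter (0.20 each) and on log2(TPM + 0.1) (0.25). JAK3 turned from -0.004 to a positive value with upper-quartile scaling (0.0387), at least 50 counts in 3 libraries (0.0093), log2(FPKM + 1) (0.0794), log2(TPM + 1) with and without a filter (0.13 each), log2(TPM + 0.1) (0.13) and the GC trend removed (0.0868), and ran from -0.0427 to 0.0390 with 1 library left out. STAT4 lost its call under DESeq2's Wald test (0.49) and with the GC trend removed (0.41), and ran from 0.40 to 0.63 with 1 library left out; it did not enter the fit at 50 counts in 3 libraries. The causes of these turns were not tested. The replicate numbers did not pair the libraries: deviations of libraries with the same number correlated at 0.05, -0.01 and -0.01, and with the replicate block 5 members were higher and 2 lower, as without it. Depth limits STAT4, at 24 to 45 counts a library.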
